A study of Mus musculus with 11 samples.

Results

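Green fluorescent cells of the PomcGFP mouse line, which is used to mark newborn granule neurons, were compared with those of the NesGFP line, which is used to mark neural stem cells. The comparison took all arrays of both lines, 2 for PomcGFP and 3 for NesGFP, which are 5 of the 11 arrays of the study, and was described over 16527 genes, each read by 1 probe set, of 19938 genes that had a probe set with a single gene symbol. PomcGFP mice carry GFP as a transgene for Pomc, which encodes a hormone precursor and whose reporter is known to be switched on for a limited time in newborn granule neurons. NesGFP mice carry GFP as a transgene for Nestin, an intermediate filament gene whose reporters are known to be active in neural stem cells and also in cells of blood vessels. The other 6 arrays came from mice with GFP knocked into Eomes (kiTbr2GFP, 3 arrays) and from mice with GFP on an Eomes bacterial artificial chromosome (tgTbr2GFP, 3 arrays); Eomes encodes Tbr2, the transcription factor of intermediate neuronal progenitors. All mice were at postnatal day 35 and all groups carried GFP, so no group was free of a reporter. The cells were sorted by their fluorescence from dissociated dentate gyri, dorsal and ventral parts included, and their RNA was amplified before hybridisation to Mouse Gene 1.0 ST arrays (Affymetrix). The labels give neither strain nor sex, and they do not say whether each array of a line stands for its own animal; the p-values therefore speak only of the spread among these arrays, part or all of which may be technical.

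The dentate gyrus is a part of the hippocampus that goes on making neurons after birth. Radial stem cells, which contain the filaments nestin and GFAP and the transcription factor Sox2, give rise to Tbr2-positive intermediate progenitors, whose daughters become granule neurons. A young granule neuron contains doublecortin and Neurod1, keeps the transcription factor Prox1 for life, grows an axon and dendrites, and gains the calcium buffer calbindin late in its maturation.

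Values are log2 signals of a probe set, called levels here, and differences are PomcGFP minus NesGFP on the log2 scale with their standard error. "Rose" and "fell" mean a Benjamini-Hochberg adjusted p under 0.05 over all genes in a limma fit of all 11 arrays. The 2 PomcGFP arrays correlated at 0.978 over genes and the NesGFP arrays at 0.939 to 0.959 among themselves, whereas PomcGFP arrays correlated with NesGFP arrays at 0.793 to 0.821. On the first principal component, which held 68.3% of the variance, the PomcGFP arrays lay at -21.9 and -22.4 and the NesGFP arrays between 68.8 and 78.5. The number of arrays limits the precision, and with 2 PomcGFP arrays the spread of that line is estimated together with the others.

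The lines were first read for Prox1 of the granule lineage, Calb1 of late granule neuron maturation and Gfap of astrocytes and radial stem cells. Calbindin is gained late, so Calb1 cannot show whether the PomcGFP cells were newborn, and their age was not tested. Prox1, the transcription factor that defines granule neurons, stood at 11.46 and 11.34 in PomcGFP, against 9.63, 9.45 and 9.58 in NesGFP. Calb1, which encodes calbindin, stood at 10.10 and 10.14 in PomcGFP, against 9.34, 8.86 and 8.99 in NesGFP. Gfap, whose filament fills astrocytes and radial stem cells, was at 7.17 and 7.61 in PomcGFP, against 9.82, 9.93 and 9.92 in NesGFP. Prox1 and Calb1 were thus high on both PomcGFP arrays, Gfap was high on every NesGFP array, and the lines did not overlap for any of the 3 genes. Prox1 rose by 1.85 ± 0.13 (adjusted p = 1.86e-06), Calb1 rose by 1.06 ± 0.26 (adjusted p = 0.00793), and the difference of Gfap was -2.50 ± 0.18 (adjusted p = 2.29e-06). The call of Calb1 ended without the second PomcGFP array (adjusted p = 0.0526).

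Some genes of young neurons followed the direction of Prox1 and others did not. Dcx, which encodes the microtubule protein doublecortin, stood at 10.82 and 10.76 in PomcGFP, against 8.57, 9.15 and 8.62 in NesGFP, a difference of 2.01 ± 0.16 (adjusted p = 4.40e-06). Neurod1, a basic helix-loop-helix factor of granule neuron differentiation, stood at 9.92 and 10.07 in PomcGFP, against 8.01, 7.77 and 8.22 in NesGFP, a difference of 1.99 ± 0.16. Rbfox3, the gene of the neuronal nuclear protein NeuN, stood at 9.73 and 9.48 in PomcGFP, against 8.81, 8.53 and 8.20 in NesGFP, a difference of 1.09 ± 0.16. For all 3 genes every PomcGFP array lay above every NesGFP array. The reporter's own gene did not separate the lines by the test: Pomc stood at 7.27 and 7.22 in PomcGFP, against 6.95, 6.83 and 7.08 in NesGFP, a difference of 0.30 ± 0.17 (adjusted p = 0.190). Tubb3, the neuronal beta-tubulin, was at 12.02 and 11.94 in PomcGFP, against 12.13, 12.07 and 12.05 in NesGFP and had an adjusted p of 0.484. Calb2, which encodes calretinin, a calcium buffer of young granule neurons and of other neurons, was at 8.27 and 7.85 in PomcGFP, against 8.46, 8.79 and 7.90 in NesGFP and overlapped between the lines (adjusted p = 0.314). Ncam1, the neural cell adhesion molecule, fell slightly (-0.54 ± 0.12, adjusted p = 0.00458), a call that ended without the second PomcGFP array (adjusted p = 0.0748).

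Nes, Sox2 and Eomes, genes of stem cells and progenitors, went the other way. Nes, the gene of nestin, stood at 6.07 and 5.97 in PomcGFP, against 7.63, 7.51 and 6.91 in NesGFP, a difference of -1.33 ± 0.20 (adjusted p = 0.000327). Sox2, a transcription factor of stem cells and glia, stood at 8.77 and 9.09 in PomcGFP, against 10.40, 10.82 and 10.53 in NesGFP, a difference of -1.65 ± 0.20 (adjusted p = 7.87e-05). Eomes stood at 7.68 and 7.35 in PomcGFP, against 8.52, 8.65 and 9.23 in NesGFP, a difference of -1.28 ± 0.22 (adjusted p = 0.000839). All NesGFP arrays lay above both PomcGFP arrays for Nes, Sox2 and Eomes, and neither PomcGFP array of Nes lay above the array's 25th percentile. Mki67, a gene of cycling cells, did not share this direction: it stood at 6.83 and 6.90 in PomcGFP, against 6.13, 6.003 and 6.15 in NesGFP and rose by 0.77 ± 0.15 (adjusted p = 0.00145). Its level was low in both lines. The PomcGFP arrays lay under their medians of 7.12 and 7.12, and the NesGFP arrays little above their 25th percentiles of 5.90, 5.91 and 6.01. Hes5, a Notch target of stem cells, was at 8.80 and 8.76 in PomcGFP, against 8.88, 8.88 and 8.88 in NesGFP (adjusted p = 0.498).

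**Figure D1:**
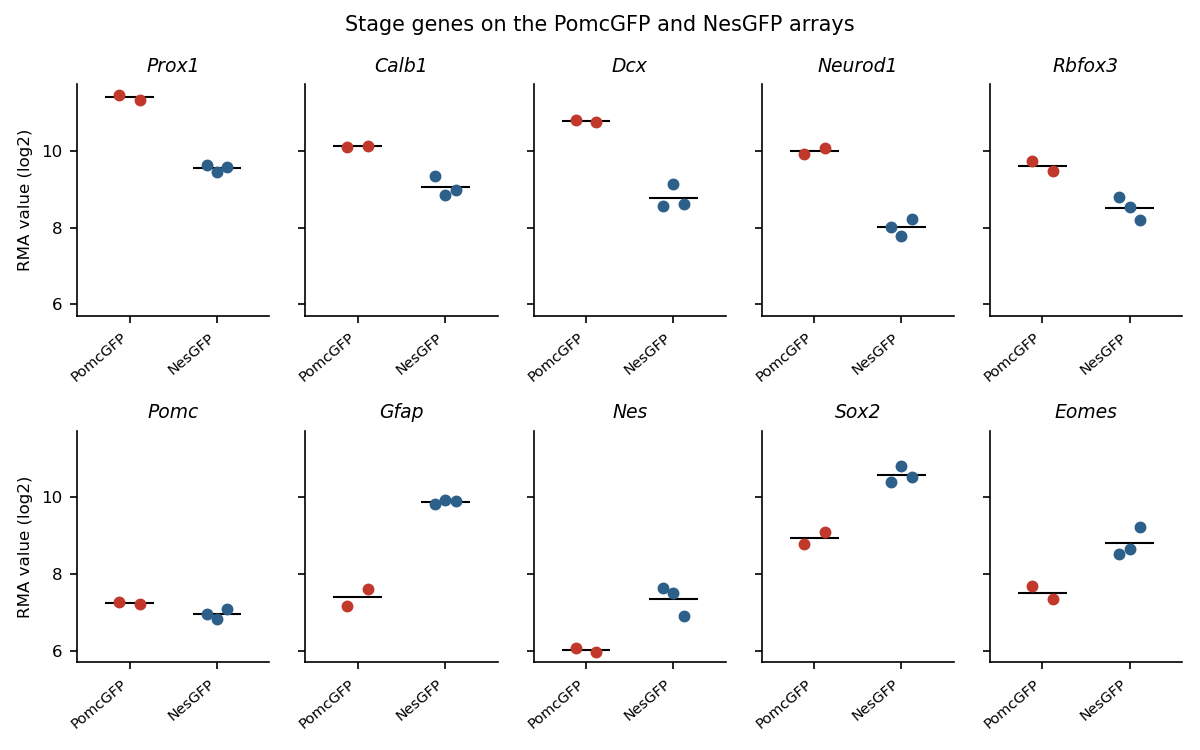
Log2 level of 10 stage genes on each array, with PomcGFP (2 arrays) to the left of NesGFP (3 arrays) in each panel; points are arrays and bars are group means. Prox1, Calb1, Dcx, Neurod1 and Rbfox3 lie higher in PomcGFP, Gfap, Nes, Sox2 and Eomes lie lower, and Pomc differs by 0.30, which did not pass the test.

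Across the genome 6591 of 16527 genes passed the test (39.9%), of which 2624 rose in PomcGFP cells (15.9% of genes tested) and 3967 fell (24.0%). Changes above 2-fold were found for 959 genes that rose (5.80%) and 1741 that fell (10.5%), and changes above 4-fold for 201 and 285 genes. The median difference of all genes was 0.00, and the 5th and 95th percentiles were -1.44 and 1.13. The counts depended on the number of PomcGFP arrays: without the first PomcGFP array 1633 genes rose and 3035 fell, without the second 1741 rose and 2712 fell, and a fit of the PomcGFP and NesGFP arrays alone had 1658 and 2824. Of the genes that rose, 175 had no NesGFP array above that array's 25th percentile, so that their level in NesGFP cells lay among the lowest of the array; of those that fell, 98 had no PomcGFP array above it.

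The genes that rose most, leaving out predicted genes and small RNAs, included parts of the excitable membrane and the synapse. Scn3a, a voltage-gated sodium channel of developing neurons, stood at 9.20 and 9.08 in PomcGFP, against 6.62, 6.30 and 5.43 in NesGFP, a difference of 3.02 ± 0.29 or 8.13-fold. Gabrb2, a subunit of the GABA-A receptor, stood at 10.04 and 10.18 in PomcGFP, against 6.82, 7.73 and 6.90 in NesGFP, a difference of 2.96 ± 0.28. Ppfia2, the liprin scaffold of the presynaptic active zone, stood at 11 and 10.89 in PomcGFP, against 8.35, 8.001 and 7.30 in NesGFP, a difference of 3.06 ± 0.26. In these 3 genes the NesGFP arrays lay more than 2-fold under the PomcGFP arrays on every pairing of arrays. Cdh9, a cadherin known from dentate gyrus synapses in mice, stood at 9.49 and 9.51 in PomcGFP, against 6.88, 6.48 and 6.12 in NesGFP, a difference of 3.004 ± 0.30, and Scn2a, a sodium channel of the axon, at 11.76 and 11.89 in PomcGFP, against 7.89, 8.35 and 10.42 in NesGFP, a difference of 2.94 ± 0.54. The third NesGFP array lay apart from the other two for Scn2a. Also among the 15 largest were Thoc2l (3.79 ± 0.38), Mctp1 (3.48 ± 0.43), which encodes a calcium-binding membrane protein, the amylase gene Amy1 (3.39 ± 0.36), the scaffold gene Jakmip2 (2.95 ± 0.51), Macrod2 (3.02 ± 0.34), the kinase gene Rock1 (2.95 ± 0.11) and the glycosyltransferase gene B3galt2 (2.92 ± 0.18). Rian, a noncoding RNA of the imprinted Dlk1-Dio3 region, Phxr4 and AI504432 differed by 3.36 ± 0.28, 3.33 ± 0.27 and 3.43 ± 0.22, and none of their NesGFP arrays lay above the 25th percentile.

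The 15 genes that fell most were led by genes of vessels and glia. Myl9, a myosin light chain of smooth muscle, stood at 6.85 and 7.55 in PomcGFP, against 11.43, 11.20 and 11.997 in NesGFP, a difference of -4.34 ± 0.30 or 20.3-fold lower in PomcGFP. Acta2, smooth muscle actin, stood at 6.31 and 6.74 in PomcGFP, against 10.17, 9.91 and 9.97 in NesGFP, a difference of -3.49 ± 0.19. Cdh5, the cadherin of endothelial junctions, stood at 7.46 and 7.67 in PomcGFP, against 11.12, 11.05 and 10.80 in NesGFP, a difference of -3.43 ± 0.18. For all 3 genes every NesGFP array lay more than 4-fold above both PomcGFP arrays. Ctla2a had the largest fall (-4.80 ± 0.66), with the PomcGFP arrays at 5.45 and 7.13. Emcn (-3.56 ± 0.41) and Cd34 (-3.25 ± 0.26) encode surface proteins of endothelial cells, Mgp (-3.54 ± 0.21) a matrix protein of vessel walls, and Higd1b (-3.31 ± 0.26) is known from pericytes. Gpr37l1 (-3.32 ± 0.23) and Htra1 (-3.26 ± 0.22) are known from astrocytes, and Mag (-3.28 ± 0.52) and Opalin (-3.27 ± 0.68) are myelin genes of oligodendrocytes. Clec2d (-3.71 ± 0.27), Itm2a (-3.50 ± 0.34) and Lcat (-3.34 ± 0.18) completed the 15, and neither PomcGFP array of Clec2d lay above the array's 25th percentile.

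**Figure D2:**
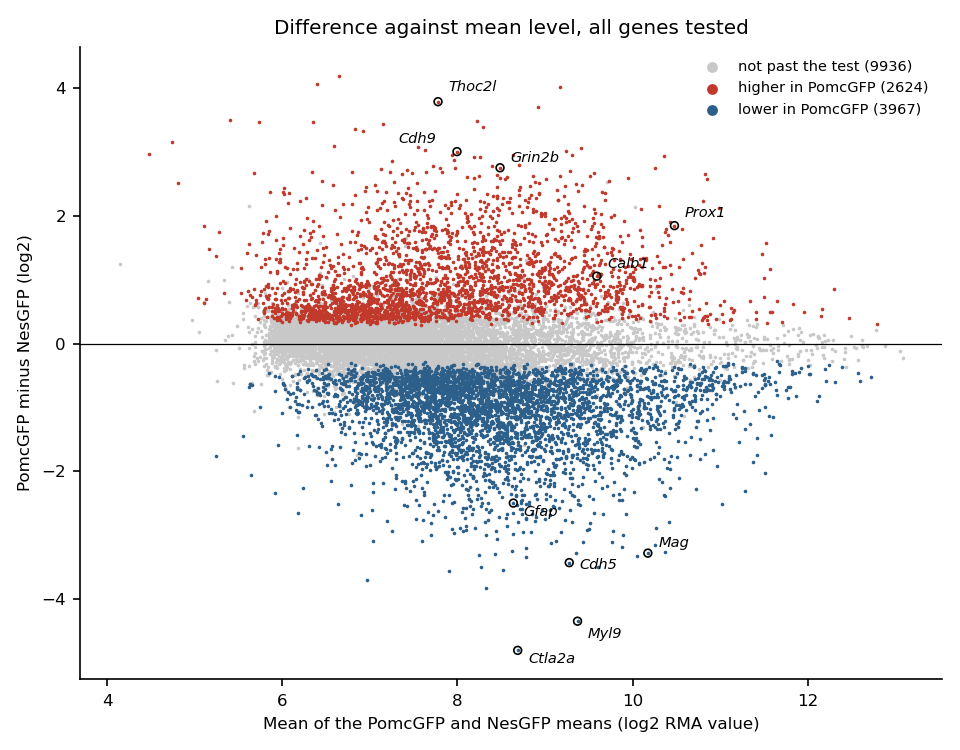
Difference (PomcGFP minus NesGFP, log2) of each of the 16527 genes against the mean of its PomcGFP and NesGFP group means. Genes that passed the test are coloured by direction. The 2624 genes that rose and the 3967 that fell are spread over all levels, and the largest fall is that of Ctla2a at -4.80.

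Genes of mature granule neurons rose in most cases, while those of immature granule neurons were mixed. Of 24 measured markers of mature granule neurons 17 rose and 0 fell (median difference 0.66, against 0.00 over all genes), and on 21 of them both PomcGFP arrays lay above all NesGFP arrays, which held for 27.9% of all genes. Trpc6, a cation channel enriched in granule neurons, stood at 8.92 and 8.75 in PomcGFP, against 6.66, 6.65 and 6.47 in NesGFP, a difference of 2.24 ± 0.29. C1ql3, a secreted synapse organizer, stood at 9.98 and 9.98 in PomcGFP, against 7.82, 8.54 and 8.20 in NesGFP, a difference of 1.79 ± 0.21. Rfx3, a transcription factor, stood at 10.17 and 10.16 in PomcGFP, against 8.33, 8.38 and 7.92 in NesGFP, a difference of 1.96 ± 0.14. Each of the 3 was more than 2-fold lower on every NesGFP array. The desmosomal gene Dsp (1.20 ± 0.19), known as a granule cell marker in mice, and the vesicle gene Synpr (1.39 ± 0.17) rose as well. C1ql2, a relative of C1ql3, was at 7.16 and 7.06 in PomcGFP, against 7.29, 7.28 and 7.47 in NesGFP and did not pass the test. Of 24 markers of immature granule neurons 9 rose (37.5%) and 2 fell (8.33%, median 0.24), against 15.9% and 24.0% of all genes. Rnd2 (-1.23 ± 0.24), a small GTPase of migrating neurons, was among those that fell. Of 23 general markers of mature neurons 14 rose and 0 fell (median 0.75). Camk2a (0.53 ± 0.29), Dlg4 (0.04 ± 0.20) and Slc17a7 (0.38 ± 0.33), which encode a synaptic kinase, the scaffold PSD-95 and the vesicular glutamate transporter VGLUT1 of mature excitatory synapses, did not pass the test.

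Transcription factors of neurons had the highest share of members that rose among the pathway lists, 20 of 25 (80%), against 15.9% of all genes. Of these factors 0 fell, and the median was 1.19. Zbtb20, a repressor needed for hippocampal neuron identity in mice, stood at 12.14 and 12.18 in PomcGFP, against 9.21, 9.71 and 9.60 in NesGFP, a difference of 2.66 ± 0.14. Myt1l, a repressor of non-neuronal genes, stood at 10.30 and 10.26 in PomcGFP, against 7.82, 8.05 and 8.22 in NesGFP, a difference of 2.25 ± 0.13. Nfib, a nuclear factor I protein, stood at 12.004 and 12.10 in PomcGFP, against 9.89, 9.73 and 10.15 in NesGFP, a difference of 2.13 ± 0.14. For these 3 genes the gap between the lines was several times the spread within either. Neurod6 (1.24 ± 0.26), Mef2c (1.20 ± 0.20) and Tbr1 (0.90 ± 0.17), further factors of excitatory neurons, rose, while Neurod2 (0.26 ± 0.12), Nfix (-0.08 ± 0.13) and Mef2d (-0.17 ± 0.26) did not pass the test.

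Of 19 regulators of splicing, 13 rose and 2 fell (median 0.76). Rbfox1, a neuronal splicing factor, stood at 9.99 and 9.80 in PomcGFP, against 8.25, 7.73 and 7.53 in NesGFP, a difference of 2.06 ± 0.20, and Celf2 (1.59 ± 0.17) and Mbnl2 (1.23 ± 0.15) rose too. The members that fell were Ptbp1, the polypyrimidine tract protein that represses neuronal exons in non-neuronal cells, at 7.71 and 7.65 in PomcGFP, against 8.83, 8.45 and 8.45 in NesGFP, and Khdrbs3 (-0.62 ± 0.18). The call of Khdrbs3 ended without the second PomcGFP array (adjusted p = 0.159). The BAF chromatin remodelling complex is known to change its composition as neurons form. Of 15 of its subunits 3 rose (20%) and 2 fell (13.3%), against 15.9% and 24.0% of all genes. Ss18 rose by 0.85 ± 0.14 and Smarcd3 differed by -1.06 ± 0.13. The count of BAF subunits that rose was 6 without the first NesGFP array, and that of subunits that fell was 5 without the third.

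Genes of the neuronal cytoskeleton did not share a direction. Of 22 genes of microtubules and growth cones 6 rose (27.3%) and 5 fell (22.7%), against 15.9% and 24.0% of all genes. The median was -0.07 and turned to 0.14 under cyclic loess scaling. Map2, a microtubule protein of dendrites, stood at 11.30 and 11.26 in PomcGFP, against 9.36, 9.68 and 9.42 in NesGFP, a difference of 1.79 ± 0.13. Kif5c, a motor of axonal transport, stood at 9.93 and 9.87 in PomcGFP, against 8.38, 8.80 and 8.75 in NesGFP, a difference of 1.26 ± 0.15. Dpysl2 (-0.97 ± 0.16), a growth cone protein, and Kif1a (-0.55 ± 0.11), a motor of synaptic vesicle precursors, fell. The count that fell was 3 without the first PomcGFP array and 2 without the second.

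Receptors for glutamate, the excitatory transmitter of granule cell inputs, rose in the PomcGFP cells for most AMPA and NMDA subunits. Of 10 measured AMPA and NMDA receptor genes 6 rose (60%) and 2 fell (20%, median 1.25), against 15.9% and 24.0% of all genes. Grin2b, the NMDA subunit of young synapses, stood at 9.80 and 9.92 in PomcGFP, against 6.95, 7.18 and 7.21 in NesGFP, a difference of 2.75 ± 0.13 or 6.73-fold (adjusted p = 5.19e-07). Gria2, the AMPA subunit that limits calcium entry, stood at 12.07 and 12.21 in PomcGFP, against 9.89, 9.72 and 9.08 in NesGFP, a difference of 2.57 ± 0.20. Gria3 stood at 10.29 and 10.15 in PomcGFP, against 8.13, 8.44 and 8.22 in NesGFP, a difference of 1.96 ± 0.39. These 3 subunits, with Grin2a (1.83 ± 0.34), Gria1 (1.70 ± 0.27) and Gria4 (0.80 ± 0.23), make up the members that rose. Grin2c (-0.99 ± 0.15) and Grin3a (-1.06 ± 0.35) fell. The call of Grin3a ended without any 1 of 4 of the arrays of these lines, the adjusted p being 0.0837 without the first NesGFP array, 0.0932 without the second, 0.196 without the first PomcGFP array and 0.0647 without the second. Among 9 kainate and metabotropic receptors 4 rose, led by Grm5 (2.05 ± 0.33) and Grik2 (1.61 ± 0.22), and 2 fell, Grm3 (-1.75 ± 0.29), which astrocytes are known to express, and Grik3 (-0.58 ± 0.19). Without the second PomcGFP array the adjusted p of Grik3 was 0.277 and without the first NesGFP array 0.102.

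Receptors for GABA and the transporters that set the chloride gradient were measured for 11 genes. Of these 6 rose (54.5%) and 1 fell (9.09%, median 0.54), against 15.9% and 24.0% of all genes. Besides Gabrb2, the alpha subunit gene Gabra2 rose: it stood at 9.08 and 8.90 in PomcGFP, against 7.56, 5.72 and 5.63 in NesGFP, a difference of 2.69 ± 0.45, with the first NesGFP array apart from the other two. Gabra4, a subunit of extrasynaptic receptors in granule neurons, stood at 9.06 and 9.06 in PomcGFP, against 7.58, 7.34 and 6.58 in NesGFP, a difference of 1.90 ± 0.31. Gabra5, another subunit of extrasynaptic receptors in hippocampal neurons, stood at 9.73 and 8.999 in PomcGFP, against 7.42, 8.14 and 7.23 in NesGFP, a difference of 1.76 ± 0.38. Both PomcGFP arrays lay above all NesGFP arrays for each of the 3 subunits. Gabrg1, a subunit known from glia, fell (-2.05 ± 0.33). Slc12a5, the chloride exporter KCC2 that makes GABA inhibitory in mature neurons, stood at 7.64 and 7.75 in PomcGFP, against 6.94, 7.33 and 7.09 in NesGFP, a difference of 0.58 ± 0.16 (adjusted p = 0.0154). Slc12a2, the chloride importer NKCC1, stood at 10.27 and 10.24 in PomcGFP, against 9.98, 10.86 and 10.44 in NesGFP and did not pass the test (adjusted p = 0.670).

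Sodium and calcium channels of the axon and soma rose in most cases. Of 24 voltage-gated sodium and calcium channel genes 15 rose (62.5%) and 0 fell (median 0.92), against 15.9% and 24.0% of all genes. Besides Scn3a and Scn2a, Cacna2d1, an accessory calcium channel subunit, stood at 9.80 and 9.75 in PomcGFP, against 7.53, 6.26 and 7.63 in NesGFP, a difference of 2.64 ± 0.32. Cacna1e, the R-type calcium channel, stood at 10.01 and 9.84 in PomcGFP, against 8.19, 7.91 and 7.34 in NesGFP, a difference of 2.11 ± 0.25. The second NesGFP array was the lowest of the 3 for Cacna2d1. Potassium channels rose more often than they fell: of 33 measured, 15 rose (45.5%) and 5 fell (15.2%, median 0.34). The share that fell was under that of all genes. Kcnt2, a sodium-activated potassium channel, stood at 9.18 and 9.18 in PomcGFP, against 6.23, 6.95 and 6.10 in NesGFP, a difference of 2.75 ± 0.25. Kcnip4 (2.45 ± 0.23), a partner of A-type channels, and Kcnh7 (2.39 ± 0.16), an ERG-type channel, rose, and none of their NesGFP arrays lay above the array's 25th percentile, so their level in NesGFP lay near the low end of the array. Those that fell included Kcnj8 (-2.11 ± 0.22), a channel of pericytes, Kcnj10 (-1.48 ± 0.17), the Kir4.1 channel of astrocytes, Kcnip3 (-2.06 ± 0.16) and Kcna6 (-1.69 ± 0.15).

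**Figure D3:**
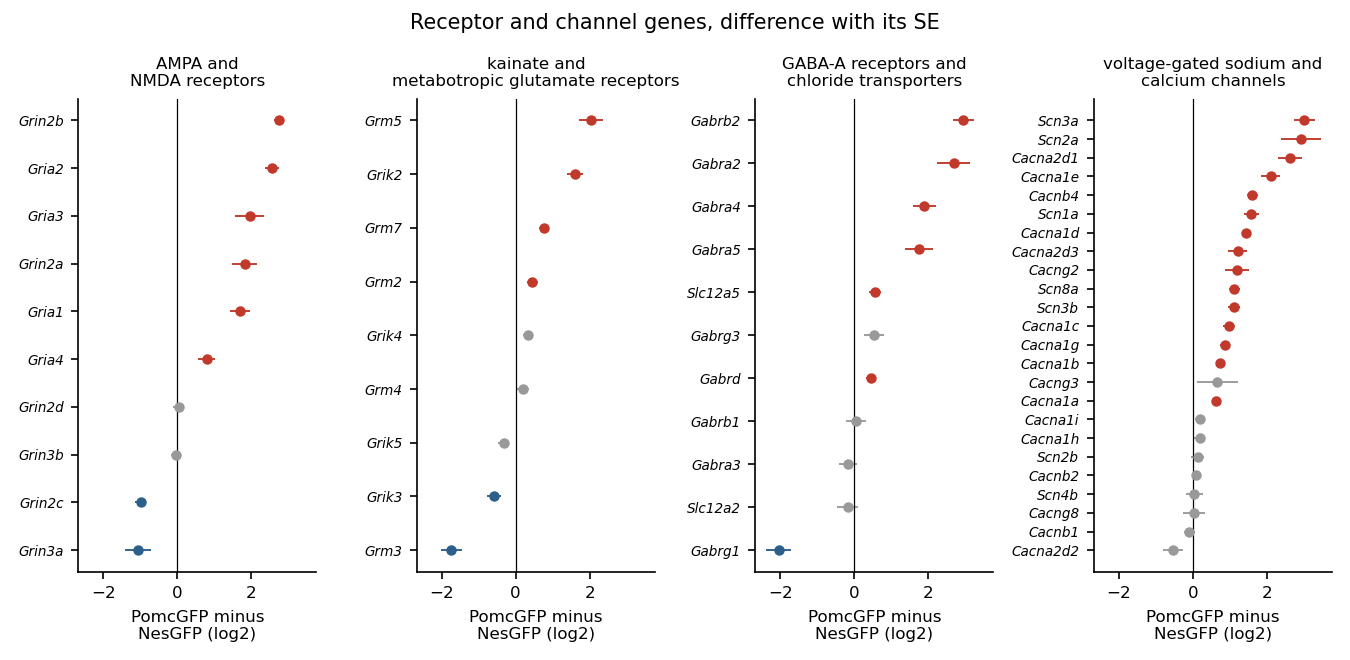
Difference (PomcGFP minus NesGFP, log2) with its standard error for each gene of 4 lists, AMPA and NMDA receptors, kainate and metabotropic glutamate receptors, GABA-A receptors and chloride transporters, and sodium and calcium channels. Red points rose, blue points fell and grey points did not pass the test; Grin2b at 2.75 and Gabra2 at 2.69 lie far to the positive side, and Gabrg1 at -2.05 and Grm3 at -1.75 far to the negative side.

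Presynaptic genes rose more often than they fell. Of 31 genes of synaptic vesicles and the active zone 16 rose (51.6%) and 1 fell (3.23%, median 0.57), against 15.9% and 24.0% of all genes. Syt1, the calcium sensor of release, stood at 10.54 and 10.52 in PomcGFP, against 8.68, 8.81 and 8.18 in NesGFP, a difference of 1.97 ± 0.17. Snap25, a SNARE protein of release, stood at 11.63 and 11.48 in PomcGFP, against 10.18, 10.29 and 9.56 in NesGFP, a difference of 1.55 ± 0.18. Pclo, the active zone scaffold piccolo, stood at 9.29 and 9.17 in PomcGFP, against 7.37, 7.31 and 7.10 in NesGFP, a difference of 1.97 ± 0.15. Each lay higher on both PomcGFP arrays, and Stxbp5l (2.75 ± 0.21) and Erc2 (2.07 ± 0.14) rose further. Sv2a, a vesicle glycoprotein, was the member that fell, at 9.85 and 9.57 in PomcGFP, against 10.91, 10.89 and 11.22 in NesGFP. Among 32 neurexins, neuroligins and other synapse organizers 13 rose and 5 fell (median 0.34): the postsynaptic scaffold gene Dlg2 (1.91 ± 0.37) and the adhesion gene Lrrtm2 (1.58 ± 0.20) rose, and Nrxn2 (-0.99 ± 0.11), Adgrl2 (-1.26 ± 0.38) and Ptprs (-0.73 ± 0.15) fell. The count that fell was 3 without the first PomcGFP array and 2 without the second, and the call of Adgrl2 ended without either (adjusted p = 0.118 and 0.0632) and without the first NesGFP array (adjusted p = 0.0549).

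Calcium signalling genes of neurons rose in 11 of 21 cases (52.4%) and fell in 2 (9.52%, median 0.60), against 15.9% and 24.0% of all genes. Ryr2, the calcium release channel of the endoplasmic reticulum, stood at 10.04 and 10.03 in PomcGFP, against 7.95, 7.89 and 7.45 in NesGFP, a difference of 2.28 ± 0.30. Ppp3ca, the catalytic subunit of calcineurin, stood at 11.95 and 11.88 in PomcGFP, against 9.72, 9.77 and 9.58 in NesGFP, a difference of 2.23 ± 0.14. Atp2b1, a calcium pump of the plasma membrane, stood at 11.42 and 11.35 in PomcGFP, against 9.37, 9.55 and 8.78 in NesGFP, a difference of 2.15 ± 0.20. For these genes, too, the lines did not overlap. Camk2g (-1.10 ± 0.16) and Camk2d (-0.49 ± 0.17), forms of the calcium/calmodulin kinase that are not confined to neurons, fell, but Camk2d overlapped between the lines and its call ended without either PomcGFP array (adjusted p = 0.0594 and 0.261).

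Axon guidance genes, which steer growing axons to their targets, rose in 20 of 34 cases (58.8%) and fell in 7 (20.6%, median 0.79). The shares of all genes were 15.9% and 24.0%. Epha7, an ephrin receptor, stood at 10.51 and 10.44 in PomcGFP, against 8.33, 7.82 and 7.43 in NesGFP, a difference of 2.62 ± 0.25. Dcc, the netrin receptor, stood at 10.59 and 10.34 in PomcGFP, against 7.95, 8.63 and 7.39 in NesGFP, a difference of 2.47 ± 0.27. Epha6 stood at 8.67 and 8.49 in PomcGFP, against 6.43, 6.70 and 6.35 in NesGFP, a difference of 2.08 ± 0.29. The PomcGFP arrays were the higher ones throughout. Sema6a (-1.55 ± 0.19), a transmembrane semaphorin, Plxnb1 (-1.31 ± 0.15), a semaphorin receptor, and Ephb1 (-1.30 ± 0.18) fell. The direction of Ephb1 turned to 0.33 (adjusted p = 0.279) when the probe sets of the gene were averaged, so its probe sets disagree.

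Genes of stem cells and radial glia fell in most cases. Of 23 measured members 19 fell and 0 rose (median -1.63), and all 23 were lower on both PomcGFP arrays than on any NesGFP array, which held for 30.9% of all genes. In RNA of pooled cells, fewer cells of a type and less RNA per cell cannot be told apart. Besides Gfap, given above, Etv5, a transcription factor downstream of FGF signalling, stood at 7.95 and 7.20 in PomcGFP, against 9.79, 9.76 and 10.27 in NesGFP, a difference of -2.37 ± 0.43. Of 19 markers of intermediate progenitors 3 rose (15.8%) and 5 fell (26.3%, median -0.21), near the 15.9% and 24.0% of all genes. Slc17a6, the vesicular glutamate transporter VGLUT2, stood at 8.47 and 7.99 in PomcGFP, against 6.09, 6.92 and 5.88 in NesGFP (1.93 ± 0.30). It was among those that rose, as was Sox11 (0.90 ± 0.13). Eomes, Gadd45g (-1.08 ± 0.24) and Rgs16 (-0.77 ± 0.20) were among those that fell. The call of Rgs16 ended without the second PomcGFP array (adjusted p = 0.0927).

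Receptors and targets of the Notch pathway, which is known to keep neural stem cells from differentiating, fell in 6 of 14 cases and rose in 1 (median -0.64). Notch2 stood at 7.15 and 7.03 in PomcGFP, against 8.97, 8.95 and 8.78 in NesGFP, a difference of -1.81 ± 0.14. Hey1, a target repressor, stood at 8.12 and 8.21 in PomcGFP, against 9.93, 10.14 and 8.86 in NesGFP, a difference of -1.48 ± 0.30. Hes1, another target, stood at 6.44 and 7.01 in PomcGFP, against 7.21, 8.65 and 8.63 in NesGFP, a difference of -1.44 ± 0.36. The first NesGFP array was the lowest of its line for Hes1, and the call ended without the first PomcGFP array (adjusted p = 0.0860). Notch1 (-1.25 ± 0.22) also fell, and Maml3 (0.49 ± 0.16), a co-activator gene, rose until either PomcGFP array was left out (adjusted p = 0.125 and 0.116). Of 15 Notch ligands and modifiers 1 rose (6.67%) and 3 fell (20%), against 15.9% and 24.0% of all genes. Mib1 (0.83 ± 0.11), the ligase that activates ligands, rose. Lfng (-0.91 ± 0.25), a glycosyltransferase that modifies the receptor, was among those that fell. Jag1 (-0.62 ± 0.20) and Lfng both lost their calls when a PomcGFP array was left out, Jag1 without the second (adjusted p = 0.228) and Lfng without the first (0.0642) or the second (0.0667).

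Other signalling pathways of the niche are to be read against all genes, of which 15.9% rose and 24.0% fell. Among 21 genes of bone morphogenetic proteins (BMPs), their receptors and the Id targets, 3 rose (14.3%) and 8 fell (38.1%, median -0.21): the target Id3 stood at 7.09 and 7.54 in PomcGFP, against 9.54, 9.52 and 9.67 in NesGFP (-2.27 ± 0.18) and the ligand Bmp4 at 7.12 and 6.77 in PomcGFP, against 8.76, 9.03 and 9.08 in NesGFP (-2.02 ± 0.15), whereas the receptor genes Acvr2a (2.04 ± 0.12) and Bmpr2 (0.75 ± 0.12) rose. Both ligands named here, Bmp4 and Bmp2 (-1.11 ± 0.23), were lower on every PomcGFP array. Of 28 Wnt receptors and regulators 1 rose, the frizzled gene Fzd3 (1.01 ± 0.17), and 12 fell (median -0.48), among them Fzd4 (-1.78 ± 0.19), the secreted inhibitor gene Frzb (-1.77 ± 0.43) and the effector Lef1 (-1.49 ± 0.17). The call of Frzb ended without the first PomcGFP array (adjusted p = 0.0748). Of 11 Hedgehog genes 6 fell, with Gli3 (-1.20 ± 0.19) and Ptch1 (-1.12 ± 0.18), a transcription factor and the receptor, and 1 rose, the co-receptor Cdon (1.22 ± 0.20); without the second PomcGFP array 3 fell. Among 20 receptor tyrosine kinases 13 fell and 2 rose (median -1.28). The members with the largest falls, Tek (-2.97 ± 0.21), Flt1 (-2.95 ± 0.24) and Kdr (-2.89 ± 0.23), are receptors of endothelial cells for angiopoietins and vascular endothelial growth factor. Ntrk3, a neurotrophin receptor, rose at 8.95 and 8.91 in PomcGFP, against 8.004, 8.07 and 7.61 in NesGFP (1.03 ± 0.16).

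Markers of cells outside the granule lineage were read in both lines, because a sort by reporter can hold more than 1 cell type. All 16 endothelial markers fell (median -2.89) and all 13 mural cell markers fell (median -2.11), against 24.0% of all genes. The mean level of the 16 endothelial markers was 7.01 and 7.43 on the PomcGFP arrays and 9.83 to 9.96 on the NesGFP arrays, and that of the mural markers 6.91 and 7.31 on the PomcGFP arrays and 9.36 to 9.51 on the NesGFP arrays. All 16 endothelial markers lay above the array's median on every NesGFP array, and 7 of 16 did so on both PomcGFP arrays. Of 19 astrocyte markers 18 fell and 0 rose (median -1.78), with mean levels of 8.70 and 8.80 in PomcGFP and 10.36 to 10.44 in NesGFP. Clu, which encodes clusterin, a secreted chaperone of astrocytes, stood at 9.61 and 9.93 in PomcGFP, against 12.30, 12.22 and 12.32 in NesGFP, a difference of -2.51 ± 0.23. Mlc1, a membrane protein of astrocytes, stood at 9.01 and 9.35 in PomcGFP, against 11.72, 11.61 and 11.36 in NesGFP, a difference of -2.39 ± 0.24. Both genes were lower on each PomcGFP array than on any NesGFP array. Aldoc, a glycolytic enzyme of astrocytes that is also on the stem cell list, stood at 10.24 and 10.02 in PomcGFP, against 12.50, 12.57 and 12.27 in NesGFP, a difference of -2.31 ± 0.17, whereas Slc4a4, a bicarbonate transporter, was the member that did not pass (-0.46 ± 0.23). Fibroblast and meningeal markers fell in 7 of 10 cases (median -1.25), with Dcn, the proteoglycan decorin, at -1.89 ± 0.23. These marker levels moved in the same direction as the lists in which genes fell in PomcGFP cells, and their part in those results was not tested.

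Oligodendrocyte genes fell in part, where 24.0% of all genes fell. Of 12 markers of oligodendrocyte precursors 9 fell (median -0.84), with Gpr17 at 7.32 and 7.30 in PomcGFP, against 9.73, 9.69 and 9.69 in NesGFP (-2.39 ± 0.17), Pdgfra (-2.23 ± 0.25) and Olig2 (-2.11 ± 0.15), and of 11 markers of oligodendrocytes 6 fell (median -1.31). Cnp, a myelin enzyme, stood at 9.10 and 8.95 in PomcGFP, against 11.74, 11.92 and 11.78 in NesGFP, a difference of -2.79 ± 0.43. Mbp, the myelin basic protein, stood at 10.07 and 10.19 in PomcGFP, against 10.41, 10.07 and 10.09 in NesGFP and overlapped between the lines (adjusted p = 0.889). The mean level of the oligodendrocyte markers was 8.98 and 9.04 on the PomcGFP arrays, 7.23 to 7.97 on the kiTbr2GFP arrays, 7.23 to 9.24 on the tgTbr2GFP arrays and 10.62 to 10.79 on the NesGFP arrays.

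Microglial genes, in contrast to the other glial and vascular groups, rose in most cases. Of 11 markers tested 7 rose (63.6%) and 0 fell (median 0.41), against 15.9% and 24.0% of all genes. P2ry12 and Itgam lay below the filter on low values and were not tested. The mean level of the 13 markers with a probe set was 7.42 and 7.46 on the PomcGFP arrays and 6.76 to 6.88 on the NesGFP arrays. Ctss, a lysosomal protease, stood at 9.32 and 8.91 in PomcGFP, against 7.65, 8.07 and 6.68 in NesGFP, a difference of 1.65 ± 0.39. Aif1, the gene of the marker Iba1, stood at 7.54 and 7.48 in PomcGFP, against 6.22, 5.91 and 6.84 in NesGFP, a difference of 1.19 ± 0.23. Tyrobp, an adaptor of microglial receptors, stood at 8.86 and 9.28 in PomcGFP, against 8.52, 8.04 and 6.70 in NesGFP, a difference of 1.31 ± 0.45. These differences rested on few arrays: the count that rose was 2 without the first PomcGFP array and 4 without the second, Ctss lost its call without the first (adjusted p = 0.0607), and Tyrobp without either (0.0803 and 0.203) or without the third NesGFP array (0.0639). The defining markers Tmem119 (0.01 ± 0.12) and Csf1r (0.13 ± 0.24), the receptor microglia need to survive, did not pass the test. Markers of GABAergic interneurons (1 of 12 rose, Gad1 at 0.76 ± 0.15, and 1 fell), of pyramidal and mossy neurons (4 of 17 rose, 3 fell) and of Cajal-Retzius cells (0 of 11 rose, 2 fell) are to be read against the 15.9% of all genes that rose and the 24.0% that fell.

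**Figure D4:**
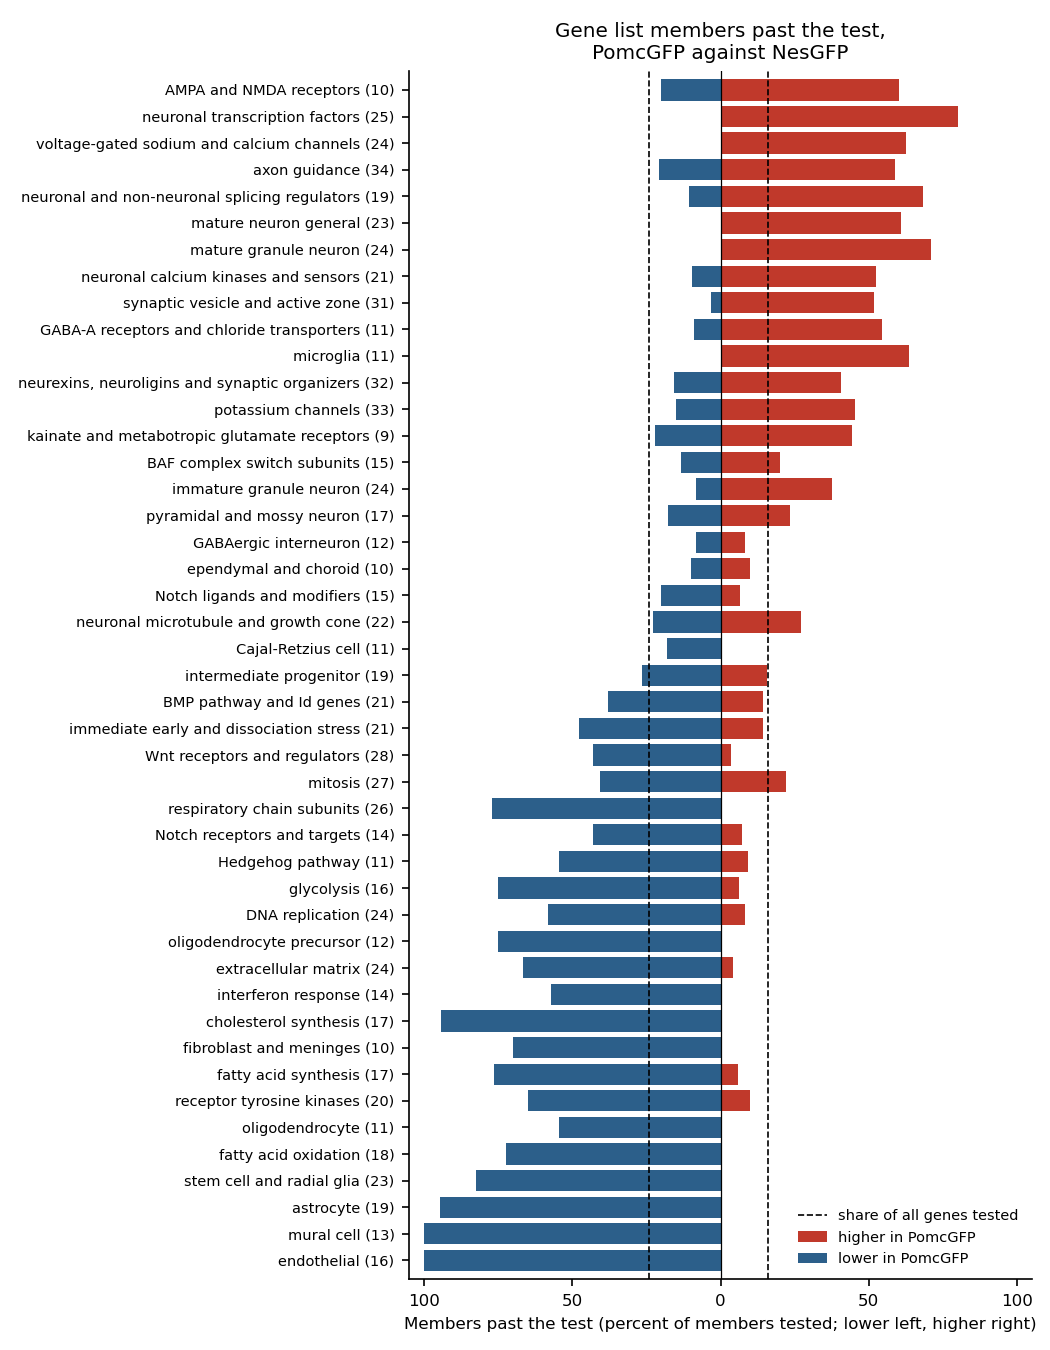
Percent of the measured members of each gene list that rose or fell in PomcGFP cells, with lists ordered by their median difference; dashed lines mark the 15.9% of all genes that rose and the 24.0% that fell. Neuronal transcription factors, channels and synapse lists stand at one end, and endothelial, mural, astrocyte and stem cell lists, whose members fell in 16 of 16, 13 of 13, 18 of 19 and 19 of 23 cases, at the other.

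Genes of cell division were split. Of 27 mitosis genes 6 rose (22.2%) and 11 fell (40.7%, median -0.50), against 15.9% and 24.0% of all genes. Of 24 DNA replication genes 2 rose (8.33%) and 14 fell (58.3%, median -0.66). The condensin subunit Smc4 stood at 8.62 and 8.69 in PomcGFP, against 6.36, 7.27 and 6.90 in NesGFP, a difference of 1.81 ± 0.21, and Smc2 (1.68 ± 0.22), the kinesin gene Kif20b (1.20 ± 0.19), the kinetochore genes Cenpe (1.13 ± 0.20) and Knl1 (0.82 ± 0.23) and Mki67 make up the members that rose. No NesGFP array of Kif20b lay above the array's 25th percentile. Those that fell included Cks2, a partner of cyclin-dependent kinases, at 6.72 and 6.21 in PomcGFP, against 8.83, 8.64 and 8.27 in NesGFP (-2.12 ± 0.22), the spindle gene Tpx2 (-1.46 ± 0.14), the mitotic kinase gene Cdk1 (-1.17 ± 0.31) and Top2a (-0.75 ± 0.23), a topoisomerase. The count of mitosis genes that fell was 6 without the second PomcGFP array. Among the replication genes the helicase gene Mcm6 (-1.25 ± 0.19) and the ribonucleotide reductase gene Rrm1 (-1.24 ± 0.17) fell, and Pola1 (1.10 ± 0.21), a primase-polymerase subunit, and Ccne2 (1.02 ± 0.31), cyclin E2, rose. The call of Ccne2 ended without either PomcGFP array (adjusted p = 0.108 and 0.0793) and without the second NesGFP array (0.0602).

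Hmgb2, a chromatin protein of dividing cells, had the clearest fall of these lists. It stood at 8.80 and 8.71 in PomcGFP, against 11.05, 11.05 and 10.996 in NesGFP, a difference of -2.28 ± 0.12 (adjusted p = 5.19e-07), or 4.85-fold lower in PomcGFP. Its promoter is printed because 18 of 23 mitosis genes with a promoter in the RefSeq table hold the CCAAT box (CCAAT or ATTGG on this strand) in the 300 bases around their start, most of them upstream, against 41.1% of 27025 genes, and 18 of 23 hold the 6-letter cell cycle homology region (TTTGAA or TTCAAA), against 20.2%. Mitosis genes that rose hold these motifs as well. Mki67 and Smc2 hold both, Cenpe holds the CCAAT box alone, and Kif20b and Knl1 hold the homology region alone. Both motifs were searched on both strands and counted separately, so their letters may overlap, and a match is a description of the sequence. The stretch is chr8:57511593-57511892 on the plus strand of GRCm38.p6, from RefSeq, with 4 CCAAT boxes and 2 cell cycle homology regions in capitals.
Hmgb2: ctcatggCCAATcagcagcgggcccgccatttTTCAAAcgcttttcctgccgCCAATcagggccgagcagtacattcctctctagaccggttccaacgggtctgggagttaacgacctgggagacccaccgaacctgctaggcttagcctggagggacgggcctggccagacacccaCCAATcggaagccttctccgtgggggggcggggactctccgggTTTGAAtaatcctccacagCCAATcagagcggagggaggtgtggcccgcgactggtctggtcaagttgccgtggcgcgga

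Genes of lipid synthesis fell in most cases. Of 17 genes of cholesterol synthesis, 15 enzymes and the regulators Srebf2 and Insig1, 16 fell (94.1%) and 0 rose (median -1.17). The shares of all genes were 24.0% and 15.9%. All 17 were lower on both PomcGFP arrays than on every NesGFP array, which held for 30.9% of all genes. Msmo1, a sterol demethylase, stood at 7.94 and 8.16 in PomcGFP, against 10.89, 10.96 and 10.99 in NesGFP, a difference of -2.89 ± 0.34 or 7.44-fold lower in PomcGFP. Sqle, squalene epoxidase, stood at 9.01 and 8.53 in PomcGFP, against 10.65, 10.63 and 10.37 in NesGFP, a difference of -1.78 ± 0.19. Idi1, the isomerase of isopentenyl diphosphate, stood at 6.67 and 6.64 in PomcGFP, against 7.81, 8.80 and 8.65 in NesGFP, a difference of -1.76 ± 0.35. Hmgcs1 (-1.02 ± 0.26), the synthase that makes HMG-CoA at the head of the pathway, fell too, and Mvk (-0.44 ± 0.26), mevalonate kinase, was the member that did not pass. The mean level of the list was 8.04 and 8.09 in PomcGFP and 9.32 to 9.37 in NesGFP, and the astrocyte and oligodendrocyte markers given above moved in the same direction. The list mean was 7.84 to 8.09 in kiTbr2GFP and 7.83 to 8.25 in tgTbr2GFP, so NesGFP stood apart from every other line.

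The promoters of Hmgcs1 and Idi1 are printed as examples of a feature that the choice of the list did not use. All 14 of its genes with a promoter in the RefSeq table held CCAAT or ATTGG in that window of 300 bases, against 41.1% of all genes. A core of the sterol regulatory element, TCACCCCAC or its reverse complement GTGGGGTGA, was found in 1 of 14, against 0.614% of all genes. The same core was found in 2 of 26 genes of synaptic vesicles and the active zone, a list that rose more often than it fell. The share in the cholesterol list thus rests on 1 gene and was not particular to that list. Hmgcs1 lies at chr13:119690101-119690400 and Idi1 at chr13:8885356-8885655, both on the plus strand of GRCm38.p6. Capitals mark 4 CCAAT boxes and 1 sterol element in Hmgcs1 and 2 CCAAT boxes in Idi1, all CCAAT boxes being read on the opposite strand as ATTGG.
Hmgcs1: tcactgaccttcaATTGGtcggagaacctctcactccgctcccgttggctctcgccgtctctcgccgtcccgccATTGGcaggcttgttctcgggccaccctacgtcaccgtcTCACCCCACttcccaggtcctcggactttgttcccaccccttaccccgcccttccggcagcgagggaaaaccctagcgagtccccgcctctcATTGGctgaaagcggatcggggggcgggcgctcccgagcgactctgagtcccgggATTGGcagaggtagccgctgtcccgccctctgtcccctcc
Idi1: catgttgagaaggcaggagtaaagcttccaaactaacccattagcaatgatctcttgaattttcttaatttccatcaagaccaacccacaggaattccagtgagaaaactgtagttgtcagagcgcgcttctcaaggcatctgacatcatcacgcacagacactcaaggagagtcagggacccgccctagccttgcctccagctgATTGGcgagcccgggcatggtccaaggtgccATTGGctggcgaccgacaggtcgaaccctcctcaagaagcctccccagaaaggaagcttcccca

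Genes of fatty acid and energy metabolism fell in most cases as well, where 24.0% of all genes fell and 15.9% rose. Of 17 genes of fatty acid synthesis 13 fell and 1 rose (median -1.28): the desaturase gene Fads2 stood at 8.60 and 8.65 in PomcGFP, against 11.16, 11.06 and 10.98 in NesGFP (-2.44 ± 0.13), and the elongase genes Elovl1 (-2.37 ± 0.29) and Elovl5 (-2.36 ± 0.30) fell, while the elongase gene Elovl6 rose (0.67 ± 0.15), a call that ended without the first PomcGFP array (adjusted p = 0.0605). Of 18 genes of fatty acid oxidation 13 fell and 0 rose (median -1.34), with the dehydrogenase gene Acadl at 6.73 and 7.37 in PomcGFP, against 9.40, 9.38 and 9.48 in NesGFP (-2.37 ± 0.18) and Cpt1a (-1.98 ± 0.14), the transferase of mitochondrial entry. The PomcGFP arrays were lower for each of these genes except Elovl6. Of 16 glycolysis genes 12 fell and 1 rose (median -0.65). Slc2a1, the glucose transporter of the blood-brain barrier, stood at 8.55 and 9.10 in PomcGFP, against 11.83, 11.65 and 11.67 in NesGFP, a difference of -2.89 ± 0.17, and Pfkm (-1.42 ± 0.23), phosphofructokinase, fell. Eno2, the neuronal enolase, rose by 0.61 ± 0.19, and its call ended without the first PomcGFP array (adjusted p = 0.290), the second NesGFP array (0.0553) or the third (0.0508). Subunits of the respiratory chain fell in 20 of 26 cases and rose in 0 (median -0.54), with Ndufv1 of complex I (-1.66 ± 0.24), Sdhb of complex II (-1.52 ± 0.20) and Uqcrc1 of complex III (-1.52 ± 0.19). Without the second PomcGFP array 7 glycolysis genes and 13 respiratory chain genes fell, and 13 respiratory chain genes did so under cyclic loess scaling.

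Matrix and interferon genes fell in most cases, and stress genes fell more often than they rose. Of all genes 24.0% fell and 15.9% rose. Of 24 genes of the extracellular matrix 16 fell and 1 rose (median -0.88). Fn1, fibronectin, stood at 7.10 and 7.26 in PomcGFP, against 10.60, 10.05 and 10.49 in NesGFP, a difference of -3.20 ± 0.21, and Bcan (-2.55 ± 0.15), a brain proteoglycan, and Lama4 (-1.93 ± 0.25), a laminin of vessel walls, fell. Of 21 immediate early and dissociation stress genes 10 fell (47.6%) and 3 rose (14.3%, median -0.33), so the share that rose was near that of all genes. Fos, an activity-induced transcription factor, stood at 7.85 and 7.90 in PomcGFP, against 9.44, 8.93 and 8.80 in NesGFP, a difference of -1.18 ± 0.21, and Dusp1 (-1.59 ± 0.22) and Ier2 (-1.59 ± 0.18) fell, whereas Homer1 (1.04 ± 0.20), a synaptic scaffold induced by activity, rose. Arc (0.08 ± 0.18) and Egr1 (-0.33 ± 0.14), further genes induced by activity, did not pass the test. Interferon response genes fell in 8 of 14 cases and rose in 0 (median -0.95; 5 fell in a fit of both lines alone), with Ifit3 at 6.06 and 6.34 in PomcGFP, against 9.65, 9.37 and 8.57 in NesGFP (-3.003 ± 0.29) and B2m, a part of MHC class I, at 9.19 and 9.78 in PomcGFP, against 11.24, 11.34 and 11.43 in NesGFP (-1.85 ± 0.20). For Ifitm3, which differed by -3.14 ± 0.52, the PomcGFP arrays stood at 7.73 and 9.64, apart from each other.

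Noncoding genes moved mostly in 1 direction. Of 163 genes that RefSeq lists as miRNA 72 rose (44.2%) and 0 fell, and of 533 long noncoding genes 136 rose (25.5%) and 16 fell, while of 15550 protein-coding genes 2345 rose (15.1%) and 3932 fell (25.3%). Of the 72 miRNA genes 17 had no NesGFP array above the array's 25th percentile. Against the Tbr2 lines 0 of the 163 were higher in PomcGFP and 1 was lower. Among 49 small nucleolar RNA genes 10 rose (20.4%) and 9 fell (18.4%). MicroRNAs are short RNAs that repress messenger RNAs that match their seed, bases 2 to 8. Whether these probe sets read the mature microRNA, its precursor or the host transcript was not tested.

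The 4 microRNA genes with the largest rises are shown by their mature sequences, from RefSeq on GRCm38.p6, with the seed in capitals. Mir340 lies at chr11:50069720-50069741 and Mir99a at chr16:77598940-77598961 on the plus strand, and Mir350 at chr1:176772342-176772363 and Mir690 at chr16:28599940-28599961 on the minus strand, each given for the first mature form listed here.
mmu-miR-340-5p: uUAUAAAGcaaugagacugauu
mmu-miR-340-3p: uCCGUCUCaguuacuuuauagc
mmu-miR-350-3p: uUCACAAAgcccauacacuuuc
mmu-miR-350-5p: aAAGUGCAugcgcuuuggg
mmu-miR-690: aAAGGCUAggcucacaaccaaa
mmu-miR-99a-5p: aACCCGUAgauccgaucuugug
mmu-miR-99a-3p: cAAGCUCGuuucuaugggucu
No 2 of these forms share a seed.

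Mir350 stood at 8.15 and 8.01 in PomcGFP, against 4.20, 4.75 and 4.88 in NesGFP, a difference of 3.47 ± 0.19 (adjusted p = 5.93e-07). Mir690 stood at 7.44 and 6.86 in PomcGFP, against 3.75, 3.36 and 3.85 in NesGFP, a difference of 3.50 ± 0.30. For both genes, the PomcGFP arrays and none of the NesGFP arrays lay above the array's 25th percentile. Mir99a stood at 10.60 and 10.95 in PomcGFP, against 5.33, 7.20 and 8.68 in NesGFP, a difference of 3.70 ± 0.67, and Mir340 at 9.17 and 8.33 in PomcGFP, against 7.40, 3.26 and 3.01 in NesGFP, a difference of 4.19 ± 1.02. The NesGFP arrays were widely spread for these 2 genes, and the call of Mir340 ended without the first PomcGFP array (adjusted p = 0.0608). In the Tbr2 lines, too, Mir350, Mir690, Mir99a and Mir340 lay above NesGFP, by 3.62, 4.10, 4.15 and 3.43. Small nucleolar RNA genes, which guide modification of ribosomal RNA, led the falls among small RNAs. Snord35b stood at 6.48 and 6.35 in PomcGFP, against 9.84, 9.99 and 10.87 in NesGFP, a difference of -3.82 ± 0.33, and Snord33 (-2.25 ± 0.40), Snord82 (-2.14 ± 0.24) and Snord42a (-1.96 ± 0.40) followed.

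The share of protein-coding genes that rose differed with the length of genome that a gene spans. When 15550 genes were ordered by their span and put into 5 bins of 3110, 9.81%, 7.59%, 9.97%, 18.3% and 29.7% rose from the shortest bin to the longest. The shares that fell were 27.0%, 29.0%, 28.2%, 23.2% and 19.1%. The longest bin began at a span of 68.7 kb. Genes of synapses, channels and axon guidance are known to be long in many cases, and the part of span in their results was not tested.

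PomcGFP cells were also set against the mean of the kiTbr2GFP and tgTbr2GFP cells, to ask which differences set the later reporter apart from the Tbr2 stage as well. Both comparisons share the PomcGFP arrays, so their values are given side by side. In this second comparison 617 genes passed (3.73%), 331 higher in PomcGFP (2.0%) and 286 lower (1.73%). The counts were 80 and 100 without the first PomcGFP array and 129 and 99 without the second. PomcGFP arrays correlated with kiTbr2GFP arrays at 0.933 to 0.947 and with tgTbr2GFP arrays at 0.953 to 0.964. Some lists that fell against NesGFP had medians near those of the Tbr2 lines. The median of PomcGFP minus Tbr2 was 0.02 for cholesterol synthesis, -0.05 for fatty acid oxidation and 0.09 for respiratory chain subunits. The Tbr2 lines differed from NesGFP by medians of -1.29, -1.10 and -0.63 for these lists.

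Some genes of mature neurons were higher in PomcGFP cells than in Tbr2 cells. Of the 24 mature granule neuron markers 11 rose over the Tbr2 lines and 0 fell, as did 12 of 23 general markers of mature neurons and 12 of 21 calcium signalling genes; without the first PomcGFP array these counts were 6, 5 and 3, and without the second 7, 7 and 6. Calb1 stood at 10.10 and 10.14 in PomcGFP, 7.78, 7.28 and 6.83 in kiTbr2GFP, 8.72, 8.03 and 8.40 in tgTbr2GFP and 9.34, 8.86 and 8.99 in NesGFP. It differed from the Tbr2 lines by 2.28 ± 0.24 (adjusted p = 0.000363), with both PomcGFP arrays the highest of all 11. Cdh9 stood at 9.49 and 9.51 in PomcGFP, 5.85, 5.31 and 5.45 in kiTbr2GFP, 8.41, 7.35 and 7.63 in tgTbr2GFP and 6.88, 6.48 and 6.12 in NesGFP, a difference from the Tbr2 lines of 2.83 ± 0.26 (adjusted p = 0.000215). Trpc6 stood at 8.92 and 8.75 in PomcGFP, 5.97, 6.46 and 6.51 in kiTbr2GFP, 7.51, 6.28 and 6.83 in tgTbr2GFP and 6.66, 6.65 and 6.47 in NesGFP, a difference from the Tbr2 lines of 2.24 ± 0.26, close in size to its difference from NesGFP. The NesGFP arrays thus lay among or beside the Tbr2 arrays for Trpc6, and between the kiTbr2GFP and tgTbr2GFP arrays for Cdh9. Grin2a (2.30 ± 0.31), Gria3 (2.29 ± 0.35), Ryr2 (2.21 ± 0.27) and C1ql3 (2.18 ± 0.19) also exceeded the Tbr2 lines.

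Other neuronal genes that rose over NesGFP did not differ from the Tbr2 lines by the test. Dcx stood at 10.82 and 10.76 in PomcGFP, 11.36, 11.29 and 11.23 in kiTbr2GFP, 10.88, 11.07 and 10.94 in tgTbr2GFP and 8.57, 9.15 and 8.62 in NesGFP, a difference from the Tbr2 lines of -0.34 ± 0.15 (adjusted p = 0.335), with every Tbr2 array above both PomcGFP arrays. Prox1 (0.23 ± 0.11), Neurod1 (-0.34 ± 0.14), Zbtb20 (-0.09 ± 0.13) and Nfib (-0.22 ± 0.12) had adjusted p-values between 0.330 and 0.927. Of the 25 neuronal transcription factors 3 rose over the Tbr2 lines and 0 fell. A p above the threshold does not show that the levels were alike, and the sizes of these differences are given with their standard errors.

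Most mitosis genes were lower than in the Tbr2 lines. Of 27 mitosis genes 23 fell and 0 rose (16 without the first PomcGFP array and 17 without the second), and of 24 DNA replication genes 9 fell and 0 rose (5 and 4). Of 19 markers of intermediate progenitors 6 fell and 0 rose, and of 23 of stem cells and radial glia 3 fell and 0 rose. Mki67 stood at 6.83 and 6.90 in PomcGFP, 9.30, 8.95 and 9.03 in kiTbr2GFP, 7.71, 8.02 and 8.08 in tgTbr2GFP and 6.13, 6.003 and 6.15 in NesGFP, a difference from the Tbr2 lines of -1.65 ± 0.13 (adjusted p = 7.76e-05), so that PomcGFP arrays lay between the NesGFP and the Tbr2 arrays. Hmgb2 stood at 8.80 and 8.71 in PomcGFP, 11.82, 11.64 and 11.66 in kiTbr2GFP, 10.88, 11.05 and 11.12 in tgTbr2GFP and 11.05, 11.05 and 10.996 in NesGFP, a difference from the Tbr2 lines of -2.60 ± 0.10. Its PomcGFP arrays were the lowest of all 11. Eomes differed from the Tbr2 lines by -2.56 ± 0.20, and Neurod4 (-2.82 ± 0.29), a proneural factor, fell too. Reln (-2.61 ± 0.27) and Ndnf (-3.10 ± 0.33), genes of Cajal-Retzius cells, were lower than in the Tbr2 lines and did not pass against NesGFP (0.18 ± 0.30 and -0.77 ± 0.37). Sox2 fell against both the Tbr2 lines (-1.21 ± 0.18) and NesGFP.

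**Figure D5:**
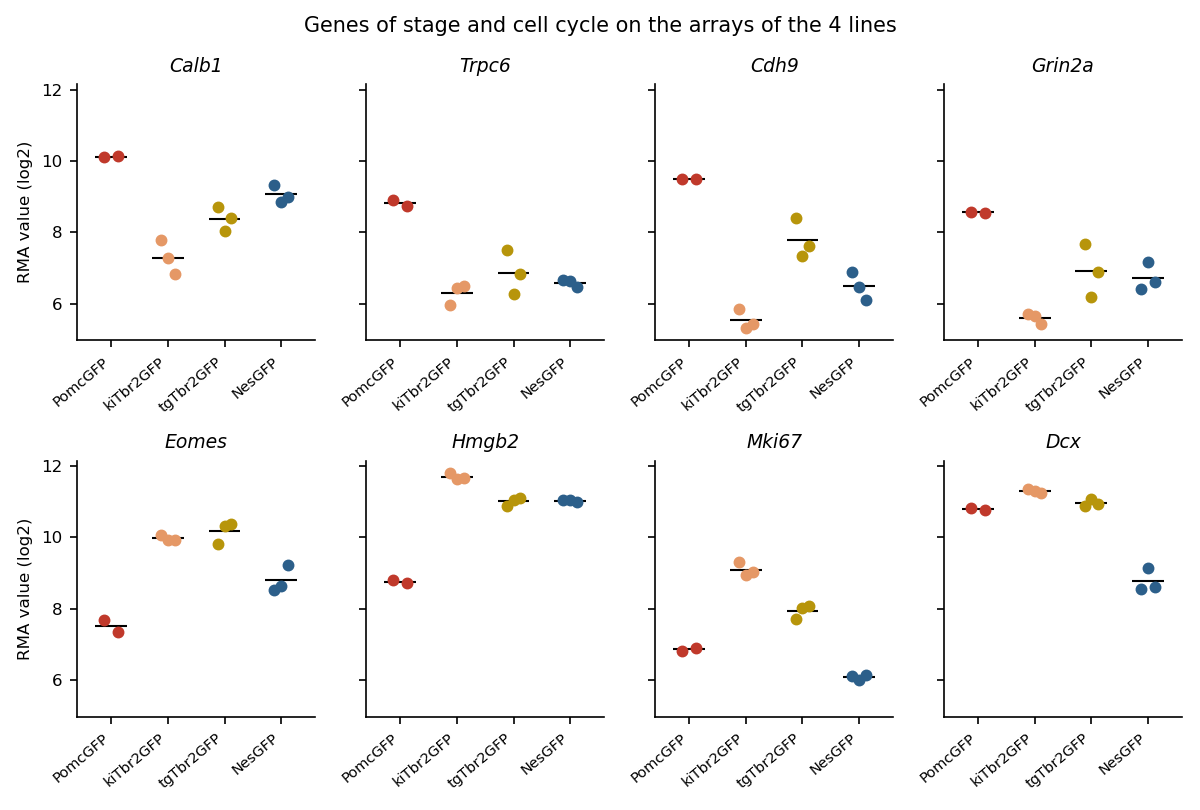
Log2 level of Calb1, Trpc6, Cdh9, Grin2a, Eomes, Hmgb2, Mki67 and Dcx on all 11 arrays, in the order PomcGFP, kiTbr2GFP, tgTbr2GFP and NesGFP; points are arrays and bars are group means. Calb1, Trpc6, Cdh9 and Grin2a are highest on the PomcGFP arrays, Hmgb2 and Eomes are lowest there, and the PomcGFP arrays of Dcx lie under the Tbr2 arrays by a difference that did not pass the test.

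Sex-linked genes were read because the labels give no sex. Xist, the noncoding RNA of the inactive X chromosome, stood at 11.08 and 10.88 in PomcGFP, against 8.28, 8.80 and 8.26 in NesGFP, a difference of 2.53 ± 1.11 (adjusted p = 0.0934). The Y-linked genes Eif2s3y (1.22 ± 1.24), Kdm5d (1.07 ± 0.51) and Uty (0.71 ± 0.77) did not pass the test either. Both PomcGFP arrays lay above all NesGFP arrays for all 4 sex-linked genes, which held for 27.9% of all genes. Their standard errors come from all lines: the SD of Xist was 0.14 in PomcGFP, 2.86 in tgTbr2GFP and 0.31 in NesGFP. Xist passed in a fit of PomcGFP and NesGFP alone (adjusted p = 0.000986), without the first tgTbr2GFP array (5.19e-06) and with the level of Y-linked genes as a covariate (0.00729). Kdm5d passed without the first or the second tgTbr2GFP array (0.0365 and 0.0404) and Eif2s3y without the second (0.0422). With the level of Y-linked genes as a covariate 2343 genes rose and 3595 fell.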

How the data were processed

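The deposited values are log2 signals, 1 per probe set and array, which the authors made with RMA, a method that corrects background, normalizes arrays and summarises probes; the submitters' processing notes name it and the oligo package. Versions are not given in the sources used here, and that the scale is log2 was inferred from the method and the range of the values. RMA makes array distributions alike, so differences are relative to the bulk of genes.

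Only the 21789 of 28858 probe sets with 1 gene symbol were used, of which 21698 matched RefSeq by Entrez number; 1621 named several genes and 5448 none in the annotation used. Probe sets above the array's 25th percentile on at least 2 arrays were kept (18097), and the one with the highest mean stood for a gene (868 genes had several), which gave 16527 genes. One mean per line was estimated from the 11 arrays together by limma (version 3.58.1, R 4.3.3; 7 residual and 4.22 prior degrees of freedom), with two-sided moderated tests and Benjamini-Hochberg adjustment over all genes of a comparison. Fits were tested on simulated data. The fit did not pair arrays by replicate number. Deviations from the line means of same-numbered PomcGFP and NesGFP arrays correlated at -0.04 and 0.04, and over all lines at -0.11 to 0.26. The 2 PomcGFP arrays deviate by equal and opposite amounts, so their correlations cannot decide whether the numbers pair arrays. Figures used Python 3.11.15 with matplotlib 3.10.9.

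Named genes are the 15 largest differences of each direction among genes that passed and had no overlap between the lines' arrays, without predicted genes (symbols of Gm, LOC or Rik type) and small RNAs; the 4 largest of each direction among small RNAs; a panel of stage genes; up to 3 members of each direction past the test per list, with a defining member that did not pass; and sex-linked genes. Other list members named were chosen after their values were seen. The comparison, its lists and tests were chosen with earlier results of these data known. Genes without a probe set of a single symbol were not analysed here.

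Alternatives were no filter (19938 genes), a filter at the 50th percentile (12321), the mean of a gene's probe sets, cyclic loess, median centring, a robust prior with an intensity trend, weights per array, a replicate block, both lines alone, a covariate for Y-linked genes, and leaving out each array.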

Additional observations from a re-analysis of the deposited data

Results flagged for a closer look

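In 3 of the genes named above PomcGFP and the mean of both Tbr2 lines differed from NesGFP in opposite directions. All 3 differences passed the limma test: PomcGFP against NesGFP, the mean of both Tbr2 lines against NesGFP, and PomcGFP against that mean. The last of these follows from the others in the same fit, so it adds no separate support. The genes were picked by this rule. Calb1, the gene of calbindin, rose by 1.06 in PomcGFP over NesGFP and differed by -1.22 in the Tbr2 lines against NesGFP, and PomcGFP minus the Tbr2 lines was 2.28 ± 0.24 (SE, adjusted p = 0.000363). Eomes, the reporter gene of the Tbr2 lines, differed by -1.28 in PomcGFP and by 1.28 in the Tbr2 lines, and PomcGFP minus the Tbr2 lines was -2.56 ± 0.20 (adjusted p = 7.76e-05). Hmgb2, the chromatin protein of dividing cells, differed by -2.28 in PomcGFP and by 0.32 in the mean of the Tbr2 lines (adjusted p = 0.0108 for that mean against NesGFP). PomcGFP minus the Tbr2 lines was -2.60 ± 0.10 (adjusted p = 5.56e-07). For Hmgb2 only kiTbr2GFP lay above NesGFP: the means were 11.704 in kiTbr2GFP, 11.016 in tgTbr2GFP and 11.035 in NesGFP.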

How the results depend on the processing

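Against NesGFP, 2624 genes rose and 3967 fell, and over the arrays left out in turn the counts ran between 1633 and 2987 and between 2712 and 4390, lowest when a PomcGFP array was missing. With both lines alone 1658 rose. Against both Tbr2 lines 331 rose and 286 fell, with ranges of 80 to 430 and 99 to 376 over arrays left out and 825 and 799 with array weights. The cause of these shifts was not tested. Under the other alternatives all 4 counts stayed within 1.5 times. The replicate number as a block gave 3086 and 4038 genes against NesGFP, and 246 and 260 against the Tbr2 lines. Whether the numbers pair the arrays was not settled, and with 2 same-numbered pairs no check of pairing by best match was made. Of 209 named genes past the test 171 kept their call and direction under every alternative they were tested in (21, or 20 for Dgkk) and 37 lost the call in at least 1. Of those that did not pass, Calb2 passed without the third NesGFP array (adjusted p = 0.0427), and the sex-linked genes as given above. The difference of Ephb1 turned to 0.33 with the mean of its probe sets, and among genes that did not pass, Hes5 turned to 0.13 and Tubb3 to 0.034 under cyclic loess, and Eif2s3y to -0.29 and Uty to -0.21 with Y-linked level as a covariate. With 2 PomcGFP arrays, signal near the low end of an array limits the genes that can be read.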
